A study of Homo sapiens with 6 samples.

Results

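Gene expression in Ki-RAS transformed Caco-2 cells was compared with that in control Caco-2 cells, using the 2 arrays of each group among the 6 arrays of the study. The probes described are those detected, with a detection score of at least 0.99, on both arrays of either group. Of the 24350 probes named by a sequence number, 9958 met this rule. Caco-2 is an established human colon adenocarcinoma line. The Ki-RAS samples carry the name CacoK15 and are labelled as rapidly growing, and the control samples are labelled as adenocarcinoma control. The study also holds 2 arrays of Ha-RAS transformed Caco-2 cells (CacoH2), 1 of which is labelled as fast growing with a phenotype of epithelial-to-mesenchymal transition. All cells were grown below confluence in serum-containing medium and received no treatment. The sources used here do not say whether the control cells carried an empty vector, or which RAS alleles and promoters were introduced. Each RAS isoform is represented by 1 line, so that an effect of the isoform and a difference between lines cannot be told apart. The design text calls the 2 samples of a group biological replicates. Nothing says whether these came from separate cultures, so the p-values measure the spread between these samples.

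RAS proteins are small GTPases that pass signals from growth factor receptors to the MAP kinase and PI3 kinase pathways. Caco-2 cells are known to differentiate towards small-intestinal absorptive cells, with brush border proteins and hydrolases, and to make apolipoproteins and other secreted proteins shared with hepatocytes and the fetal gut. In epithelial-to-mesenchymal transition, epithelial cells lose adhesion molecules such as EPCAM and gain intermediate filaments and matrix proteins such as vimentin and SPARC.

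The files give probe IDs without gene names. A gene is named here only where the RefSeq number in the ID was known from general knowledge to belong to it, which covered 79 of 186 genes in 9 lists (84 probes). The names of 10 of these genes were added after the IDs on the array had been seen, and those of SERPINA1 and FN1 after their values had been seen. The suffix of an ID marks a probe for a single transcript (S), for all isoforms (A) or for 1 isoform (I). Values are normalized log2 intensities, given in the order array A and array B, and a level is never set against that of another probe. Differences are Ki-RAS minus control with the standard error (SE) of the fit and n = 2 arrays per group. A probe was called at a limma adjusted p below 0.05.

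Between 9245 and 9702 probes were detected on a Ki-RAS or control array, and the 10848 probes that both arrays of 1 or more of the 3 groups detected were tested. Over these probes the 2 Ki-RAS arrays correlated at r = 0.989 and the 2 control arrays at r = 0.9872, across probes, which are not independent replicates. Of the 9958 probes detected in Ki-RAS or control cells, 5869 were called, 2976 higher and 2893 lower in Ki-RAS cells, where 55.1% of all probes tested were called (27.9% higher and 27.2% lower). The median size of a called difference among them was 0.93, where the replicates of control cells differed by a median of 0.20 and those of Ki-RAS cells by 0.17. Of the 10848 probes tested, 354 were called at least 4-fold higher and 401 at least 4-fold lower, the lower ones being 3.7%. At least 8-fold differences were called for 149 higher and 159 lower. At the edge of the detection rule, 96 probes just inside it had a median signal of 83.6 and 113 just outside it had 82.1. The values of both groups did not overlap for 76% of all probes tested. A majority of the probes, 7895, were detected on all 4 arrays, and 4150 of these were called, 2146 higher and 2004 lower.

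**Figure D1:**
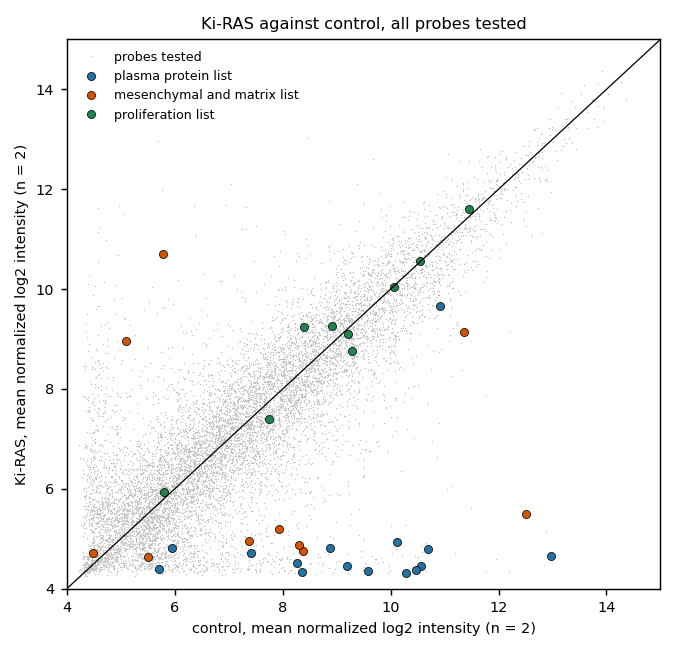
Mean normalized log2 intensity of each of the 10848 probes tested in control cells (horizontal axis, n = 2) and Ki-RAS cells (vertical axis, n = 2), with a diagonal line of equal values and 3 gene lists in colour. The genes of the plasma protein list lie below the line, 14 of the 15 at the level of undetected probes in Ki-RAS cells. The proliferation genes lie close to the line and the matrix genes on both sides of it.

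Genes of apolipoproteins and other secreted plasma proteins, listed together with the intracellular FABP1, were lower in Ki-RAS cells. All 15 probes tested from this list were called lower (adjusted p from 7.39e-10 to 0.00126), and for 14 of them both control arrays and no Ki-RAS array detected the probe, a pattern found in 6.52% of all probes tested. Of the 14, 13 entered the test only through the control arrays, so a difference had to follow for them, and FABP1 was also detected on both Ha-RAS arrays. Without SERPINA1, whose name was added with its value known, 14 of 14 were lower. That count is no test, since most of these probes also entered only through the control arrays. In bulk samples, fewer cells of a type and less RNA per cell cannot be told apart.

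APOA1 encodes the main protein of high-density lipoprotein. Its log2 intensity was 4.74 and 4.57 in Ki-RAS cells and 12.86 and 13.08 in control cells. Neither Ki-RAS array detected the probe, while both control arrays were bright. This was at least 220-fold lower (adjusted p = 7.39e-10), where a bound written as "at least" sets the brighter group against the lowest signal that counts as detected. APOA2, the second protein of high-density lipoprotein, read 4.46 and 4.45 against 10.46 and 10.65 and was at least 41.3-fold lower. APOB, the scaffold of chylomicrons and very-low-density lipoprotein, read 4.46 and 4.23 against 9.69 and 9.46 and was at least 20.9-fold lower. These apolipoproteins went from clear detection on both control arrays to none in Ki-RAS cells. APOC3, an inhibitor of triglyceride clearance, read 4.38 and 4.28 against 7.84 and 8.86, at least 8.95-fold lower, with the control arrays further apart than for the other apolipoproteins. APOD was at least 8.47-fold lower.

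APOE, a ligand of lipoprotein receptors, was the one member of the list still detected in Ki-RAS cells. It read 9.84 and 9.48 in Ki-RAS cells and 11.01 and 10.82 in control cells. The groups did not overlap, and the fall was 2.39-fold (log2 difference -1.26 ± 0.17 SE, adjusted p = 0.000168). In Ha-RAS cells APOE read 7.68 and 7.52, and Ki-RAS cells were above them by 2.06 (adjusted p = 4.48e-06). It was the one gene of the list called between the RAS lines. The other 14 had Ki-RAS minus Ha-RAS differences between -0.35 and 0.31, among signals at or below detection.

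Secreted proteins that are made by the liver and in part by fetal gut, and the intracellular FABP1, were lower too. AHSG (fetuin A) read 4.75 and 4.82 against 10.60 and 10.78 and was at least 45.3-fold lower. VTN (vitronectin), an adhesive plasma protein, read 4.34 and 4.39 against 10.52 and 10.42, at least 38.9-fold lower. SERPINA1, the inhibitor of neutrophil elastase, read 4.28 and 4.36 against 10.13 and 10.45, at least 34.4-fold lower. In each case the control arrays were bright and both Ki-RAS arrays lay below detection. AFP (alpha-fetoprotein) read 4.48 and 4.44 against 9.29 and 9.10, at least 16.1-fold lower, and the thyroxine carrier TTR 4.81 and 4.80 against 8.73 and 9.02, at least 12.9-fold lower. FABP1, the fatty acid binding protein of liver and gut, read 4.85 and 5.02 against 10.01 and 10.22, at least 30.4-fold lower. Complement C3 was at least 4.69-fold lower. Haptoglobin (HP) and antithrombin (SERPINC1) were dim in control cells, at 5.83 and 5.57 and at 6.02 and 5.88, and their bounds were only 1.43 and 1.69. CP, PLG and HPX were not detected on both arrays of any group and were not tested. The bounds depend on the background correction, and without it the fitted folds were smaller, 110 for APOA1, 23.4 for VTN, 23.2 for APOA2, 22.1 for AHSG, 21.8 for SERPINA1, 14.4 for FABP1, 13.6 for APOB, 9.48 for AFP, 6.72 for TTR, 6.29 for APOC3, 5.29 for APOD and 2.96 for C3.

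The sequence upstream of these genes was searched because they moved together and because genes of this kind are known targets of the hepatocyte nuclear factors HNF1 and HNF4. The RefSeq promoter table (GRCh38.p14) held 7 of the 15 genes, AFP, AHSG, FABP1, APOA2, APOE, SERPINA1 and VTN. The 250 bases before each gene's start were searched on both strands for GTTAAT, a half-site of HNF1, and AAAGTCCA, a core of the HNF4 element, and no window of the 7 held both. The 3 windows shown were picked among those with a match, and no window of APOA2, APOE or VTN held one. Capitals mark the match, which for AHSG lies on the opposite strand. AFP lies on the forward strand at chr4:73435971-73436220, FABP1 on the reverse strand at chr2:88128063-88128312 and AHSG on the forward strand at chr3:186612810-186613059.
AFP: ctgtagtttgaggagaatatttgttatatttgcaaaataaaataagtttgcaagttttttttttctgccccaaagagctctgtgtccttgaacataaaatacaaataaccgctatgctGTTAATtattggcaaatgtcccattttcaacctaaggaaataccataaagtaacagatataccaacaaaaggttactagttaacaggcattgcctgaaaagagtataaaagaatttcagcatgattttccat
FABP1: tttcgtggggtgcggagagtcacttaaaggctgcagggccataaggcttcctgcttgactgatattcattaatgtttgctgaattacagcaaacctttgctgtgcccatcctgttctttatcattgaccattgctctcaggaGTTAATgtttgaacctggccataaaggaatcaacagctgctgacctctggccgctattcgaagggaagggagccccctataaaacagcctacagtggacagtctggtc
AHSG: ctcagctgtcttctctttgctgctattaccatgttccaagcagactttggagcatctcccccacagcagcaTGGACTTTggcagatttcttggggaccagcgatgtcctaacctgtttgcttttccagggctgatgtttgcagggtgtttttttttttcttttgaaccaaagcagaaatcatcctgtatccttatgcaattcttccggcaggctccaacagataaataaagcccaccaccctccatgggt
GTTAAT was found upstream of 3 of the 7 genes (AFP, FABP1 and SERPINA1) and in 6.23% of 35116 promoters in the table. AAAGTCCA was found upstream of 1 of the 7 (AHSG) and in 0.98% of promoters. A gene with several starts counted if any of its windows matched, while the percentages count each promoter by itself. A match describes letters in this window and is neither a site nor a cause.

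**Figure D2:**
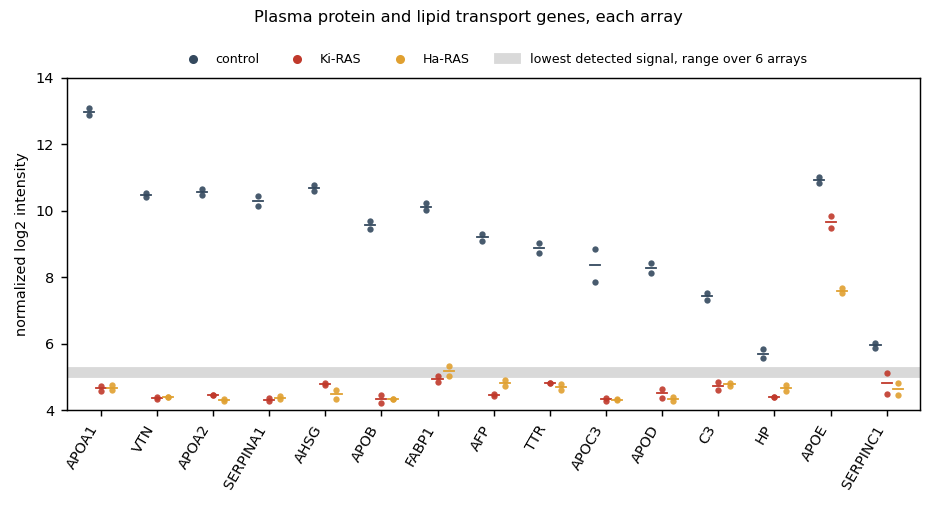
Normalized log2 intensity (vertical axis) of the 15 plasma protein and lipid transport probes on each array, as points with the group mean as a bar, for control, Ki-RAS and Ha-RAS cells; the grey band is the range over the 6 arrays of the lowest signal that counts as detected. APOA1 reads 12.86 and 13.08 in control cells and 4.74 and 4.57 in Ki-RAS cells, and APOE is the one member above the band in Ki-RAS cells.

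The brush border transcripts DPP4, VIL1 and PLS1 were lower in Ki-RAS cells, while keratins 8 and 18 were bright in both groups and not called. Ezrin, which links actin to the membrane, was 2.17-fold higher and is described with the actin list. Of 7 epithelial and enterocyte probes tested, 4 were called lower (DPP4, VIL1, EPCAM and PLS1), none higher and 3 not called, where 27.2% of all probes tested were lower, with a median difference of -0.86 against 0.01 over all probes tested. DPP4, a peptidase of the brush border, read 5.23 and 5.31 in Ki-RAS cells and 10.27 and 10.27 in control cells. It was detected in both groups and was 32.1-fold lower (log2 difference -5.00 ± 0.16 SE, adjusted p = 4.48e-09), or 14.5-fold without background correction. VIL1 (villin), an actin bundler of microvilli, read 4.53 and 4.54 against 7.59 and 7.68, and no Ki-RAS array detected it. It was at least 5.46-fold lower, or a fitted 3.57-fold without background correction. No Ha-RAS array detected it either, so it entered the test only through the control arrays and had to differ. PLS1, the intestinal plastin of microvilli, read 7.04 and 6.76 against 8.02 and 7.50 and was 1.81-fold lower (adjusted p = 0.0038).

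EPCAM, an epithelial adhesion molecule, stayed well detected in Ki-RAS cells, at 10.83 and 10.43 against 11.98 and 11.67 in control cells. Both Ki-RAS arrays lay below both control arrays, and the fall was 2.29-fold (log2 difference -1.20 ± 0.18 SE, adjusted p = 0.000329). In Ha-RAS cells EPCAM read 6.62 and 6.56, and Ki-RAS cells were above them by 4.04 on the log2 scale (adjusted p = 5.18e-08). KRT8, a keratin of simple epithelia, read 12.88 and 12.85 against 13.02 and 12.68, with overlapping groups. Its log2 difference was 0.01 ± 0.18 SE (adjusted p = 0.957). KRT18, its partner, read 13.08 and 13.10 against 12.89 and 13.03 on the probe for all isoforms, a difference of 0.13 ± 0.15 SE (adjusted p = 0.507). The isoform probe of KRT18 was undetected on all 6 arrays. The desmosome protein DSP read 5.28 and 5.57 against 5.17 and 6.05 and was not called (adjusted p = 0.564), but its difference was -0.63 (adjusted p = 0.0378) without control array A. KRT20 and the brush border peptidase ANPEP were undetected on all arrays. Of the 7 genes fixed as epithelial markers, 5 were identified, 4 of them detected on both control arrays and 3 on both Ki-RAS arrays. No blood cell marker could be identified (0 of 2).

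**Figure D3:**
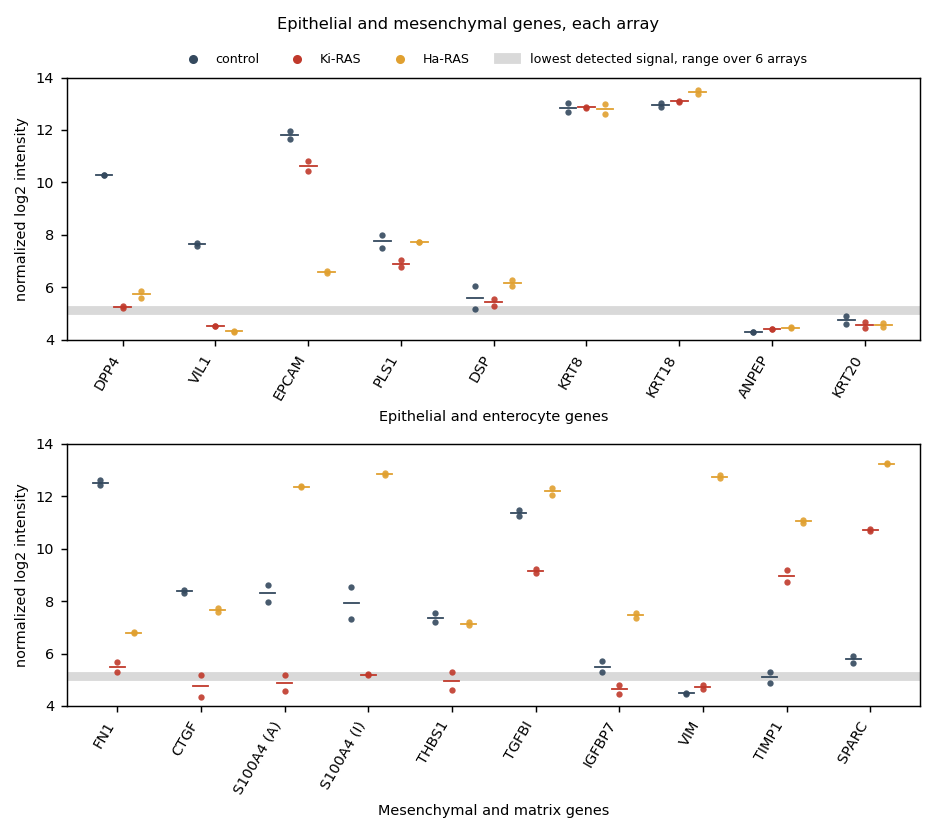
Normalized log2 intensity (vertical axis) of epithelial and enterocyte probes (upper panel) and of mesenchymal and matrix probes (lower panel) on each array, with the group mean as a bar and the range of the lowest detected signal as a grey band. DPP4 and VIL1 are near or below the band in Ki-RAS cells while KRT8 and KRT18 are bright in all groups; VIM reads 12.69 and 12.79 in Ha-RAS cells and lies below the band in Ki-RAS and control cells.

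The mesenchymal and matrix genes did not move one way in Ki-RAS cells. Of 10 probes tested (9 genes), 2 were higher, 7 lower and 1 not called, where 27.9% of all probes tested were higher and 27.2% lower. The median difference was -2.32. The intermediate filament gene VIM, a defining mesenchymal marker, was undetected on every Ki-RAS and control array, at 4.781 and 4.629 against 4.498 and 4.468 (adjusted p = 0.234). In Ha-RAS cells it read 12.69 and 12.79. Ki-RAS cells were at least 188-fold lower than Ha-RAS cells, or a fitted 92.3-fold without background correction. The probe entered the test only through the Ha-RAS arrays and had to differ there.

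SPARC and TIMP1 rose. SPARC, a collagen-binding matrix protein, read 10.67 and 10.74 in Ki-RAS cells and 5.91 and 5.64 in control cells, and all 4 arrays detected it. The rise was 30.5-fold (log2 difference 4.93 ± 0.16 SE, adjusted p = 4.97e-09), or 16.3-fold without background correction. TIMP1, an inhibitor of matrix metalloproteinases, read 9.17 and 8.73 against 4.89 and 5.28, with 1 of the 2 control arrays detecting it. It was 14.6-fold higher (adjusted p = 1.07e-07), or 6.49-fold without background correction. Both genes were higher still in Ha-RAS cells, with Ki-RAS minus Ha-RAS differences of -2.53 and -2.09 (adjusted p = 4.68e-07 and 9.69e-06).

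Several adhesion and matrix genes that control cells expressed were lower. FN1 (fibronectin), named after its value was seen and measured on a probe for 1 isoform, read 5.69 and 5.29 in Ki-RAS cells and 12.63 and 12.41 in control cells. The probe was just above detection in Ki-RAS cells, and the fall was 130-fold (log2 difference -7.02 ± 0.18 SE, adjusted p = 2.12e-09), or 61.7-fold without background correction. TGFBI, a matrix protein induced by TGF-beta, read 9.22 and 9.06 against 11.24 and 11.47 and was 4.64-fold lower (adjusted p = 1.87e-06). CTGF, a matricellular protein, read 5.18 and 4.33 against 8.43 and 8.31, with no detection in Ki-RAS cells, and was at least 9.08-fold lower (adjusted p = 8.44e-07), or a fitted 5.27-fold without background correction. For both genes the groups were clear of each other. The thrombospondin gene THBS1 read 5.29 and 4.60 against 7.55 and 7.19, with 1 Ki-RAS array detecting it. It was 5.37-fold lower (adjusted p = 1.01e-05), or 2.70-fold without background correction. IGFBP7, a secreted binding protein, read 4.47 and 4.80 against 5.30 and 5.70 and was at least 1.24-fold lower (adjusted p = 0.00321). All 10 probes of the list were lower in Ki-RAS than in Ha-RAS cells, where 31.6% of all probes tested were. VIM had to be, since it entered the test only through the Ha-RAS arrays, and both S100A4 probes are among the 10. The list was chosen with earlier results of these data known, so the count is a description and no test.

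S100A4, a calcium-binding protein associated with cell motility, was lower in Ki-RAS than in control cells on both of its probes. The probe for all isoforms read 5.16 and 4.57 against 8.61 and 7.98 and was at least 8.61-fold lower (adjusted p = 1.11e-06), or a fitted 4.67-fold without background correction. The isoform probe read 5.23 and 5.16 against 7.32 and 8.53 and was 6.62-fold lower (adjusted p = 3.63e-05), or 3.41-fold without background correction. Its log2 difference of -2.73 became -3.35 without control array A and -2.11 without control array B. Control cells thus showed S100A4 on every array, and Ki-RAS cells at or below the edge of detection. Ha-RAS cells read 12.38 and 12.34 on the first probe, and Ki-RAS cells were at least 144-fold lower (adjusted p = 6.42e-09), or a fitted 67.7-fold without background correction. LGALS3 (galectin 3), a lectin of epithelia, read 7.09 and 7.53 against 11.02 and 10.75 and was 11.9-fold lower (adjusted p = 4.47e-07).

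Other members of the annexin and S100 list rose. Over its 8 probes, 3 were higher, 3 lower and 2 not called, where 27.9% of all probes tested were higher and 27.2% lower. ANXA1, a phospholipid-binding protein, read 8.18 and 8.33 in Ki-RAS cells and 6.71 and 6.34 in control cells, and was 3.32-fold higher (adjusted p = 1.37e-05). S100A11 read 11.81 and 11.69 against 10.16 and 10.30 and was 2.86-fold higher (adjusted p = 1.72e-05), with no overlap. ANXA2 was higher by 0.88 ± 0.16 SE (adjusted p = 0.00124). Its partner S100A10 differed by -0.08 ± 0.15 SE and ANXA3 by -0.35 ± 0.17 SE, and neither was called, although ANXA3 was called lower without background correction (adjusted p = 0.0411).

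Of 10 probes for the actin cytoskeleton, 5 were higher, none lower and 5 not called, where 55.1% of all probes tested were called and 27.9% were higher. The median difference was 0.39. EZR (ezrin), which links actin to the membrane, read 11.69 and 11.78 in Ki-RAS cells and 10.48 and 10.75 in control cells. It was 2.17-fold higher (adjusted p = 0.000179), and Ki-RAS cells were also above Ha-RAS cells, at 10.33 and 10.31, by 1.42 (adjusted p = 3.17e-05). CAPG, an actin filament capper, read 6.68 and 6.70 against 5.59 and 4.87, with 1 control array detecting it. It was 2.75-fold higher (adjusted p = 0.000305), or 1.74-fold without background correction. TAGLN2 and FLNA (filamin A), a cross-linker, were 2.08-fold and 1.82-fold higher (adjusted p = 0.000428 and 0.00108). LASP1 was 1.39-fold higher (adjusted p = 0.0212), a call lost without either Ki-RAS array or without control array A (adjusted p = 0.0657 to 0.0841) and under a scaling of each array to a common median (0.0718). ACTB, TPM4, CFL1 and TLN1 had differences between -0.11 and 0.05 and were not called. The ezrin relative MSN (moesin) was undetected in Ki-RAS and control cells and detected in Ha-RAS cells.

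The Ki-RAS cells are labelled as rapidly growing, and the proliferation genes were close to the level of control cells. Of 9 probes tested (8 genes), 1 was higher, 1 lower and 7 not called, where 55.1% of all probes tested were called. The median difference was 0.03. BIRC5 (survivin), which acts in mitosis and cell survival, read 9.18 and 9.29 in Ki-RAS cells and 8.15 and 8.63 in control cells. Both Ki-RAS arrays were above both control arrays, and the rise was 1.80-fold (log2 difference 0.85 ± 0.18 SE, adjusted p = 0.00297). CCND1 (cyclin D1), a target of RAS signalling that drives entry into S phase, read 8.74 and 8.78 against 9.18 and 9.36. It was 1.43-fold lower (adjusted p = 0.0173), and the call was lost without either Ki-RAS array or without control array B (adjusted p = 0.0551 to 0.0729). In Ha-RAS cells CCND1 read 11.78 and 11.60, and the Ki-RAS minus Ha-RAS difference was -2.93 (adjusted p = 1.57e-07).

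Enzymes of DNA synthesis were not called. TYMS (thymidylate synthase) read 10.18 and 9.91 in Ki-RAS cells and 10.04 and 10.07 in control cells, a difference of -0.01 ± 0.16 SE. TOP2A, the topoisomerase of dividing cells, read 9.009 and 9.180 against 9.422 and 8.999, a difference of -0.12 ± 0.18 SE, and RRM2 7.18 and 7.63 against 7.88 and 7.63, a difference of -0.35 ± 0.20 SE. PCNA, the clamp of DNA polymerase, differed by 0.03 ± 0.15 SE on the probe for all isoforms and by 0.34 ± 0.21 SE on an isoform probe, which was called higher without control array B (0.63, adjusted p = 0.0382). For TYMS, TOP2A and RRM2 the groups overlapped or met. KPNA2 and RB1 differed by 0.14 ± 0.19 SE and 0.13 ± 0.22 SE. Against Ha-RAS cells, 6 of the 9 probes were lower in Ki-RAS cells, where 31.6% of all probes tested were. The log2 differences were -1.25 for TOP2A, -1.26 for RRM2 and -0.76 for TYMS (adjusted p = 0.000226, 0.000321 and 0.0019).

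Among genes of glycolysis and the pentose phosphate pathway, 2 probes were higher, 3 lower and 2 not called, where 55.1% of all probes tested were called. LDHA, which turns pyruvate into lactate, read 11.136 and 11.004 in Ki-RAS cells and 12.662 and 12.523 in control cells and was 2.87-fold lower (adjusted p = 1.56e-05). SLC2A1, the glucose transporter GLUT1, read 8.62 and 8.62 against 9.89 and 9.82 and was 2.35-fold lower (adjusted p = 6.60e-05). In both cases the groups were far apart relative to their replicates. The aldolase gene ALDOC read 7.26 and 7.45 against 8.38 and 9.42 and was 2.93-fold lower (adjusted p = 0.000911). TKT (transketolase) was 1.42-fold higher (adjusted p = 0.0144), a call lost without Ki-RAS array B or control array A (adjusted p = 0.0637 and 0.0634). ENO1 (enolase) was 1.36-fold higher (adjusted p = 0.0433) and lost the call without any 1 of 5 arrays, with adjusted p = 0.0678 and 0.0690 without Ha-RAS arrays A and B, 0.144 and 0.0852 without Ki-RAS arrays A and B, and 0.230 without control array A. It also lost the call under the common-median scaling (adjusted p = 0.0686). GAPDH and TALDO1 differed by 0.13 ± 0.15 SE and 0.12 ± 0.17 SE.

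Of 9 probes for stress and redox genes, 2 were higher, 6 lower and 1 not called, where 27.9% of all probes tested were higher and 27.2% lower. The median difference was -0.86. HSP90B1, a chaperone of the endoplasmic reticulum, read 9.87 and 10.04 in Ki-RAS cells and 11.34 and 11.15 in control cells and was 2.44-fold lower (adjusted p = 6.24e-05). NQO1, a quinone reductase, read 8.97 and 9.14 against 10.17 and 10.11 and was 2.12-fold lower (adjusted p = 0.00016). Thioredoxin (TXN) and catalase (CAT) were 2.05-fold and 1.92-fold lower (adjusted p = 0.000188 and 0.000424). The mitochondrial chaperonin HSPE1 and carbonic anhydrase CA2 were lower, with log2 differences of -0.51 and -0.86 (adjusted p = 0.0135 and 0.00742). Only 1 Ki-RAS array detected CA2. HSPE1 lost the call without Ki-RAS array A (adjusted p = 0.0607) and under the common-median scaling (0.0781), and CA2 lost it without Ki-RAS array A or control array B (0.0623 and 0.0570). FABP5, a fatty acid carrier of epithelia, read 11.91 and 11.54 against 10.67 and 10.54 and was 2.17-fold higher (adjusted p = 0.000328). CRYAB, a small heat shock protein, was detected on both Ki-RAS and no control array and was at least 1.08-fold higher (adjusted p = 0.00175). SOD2 differed by 0.21 ± 0.16 SE and was not called.

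**Figure D4:**
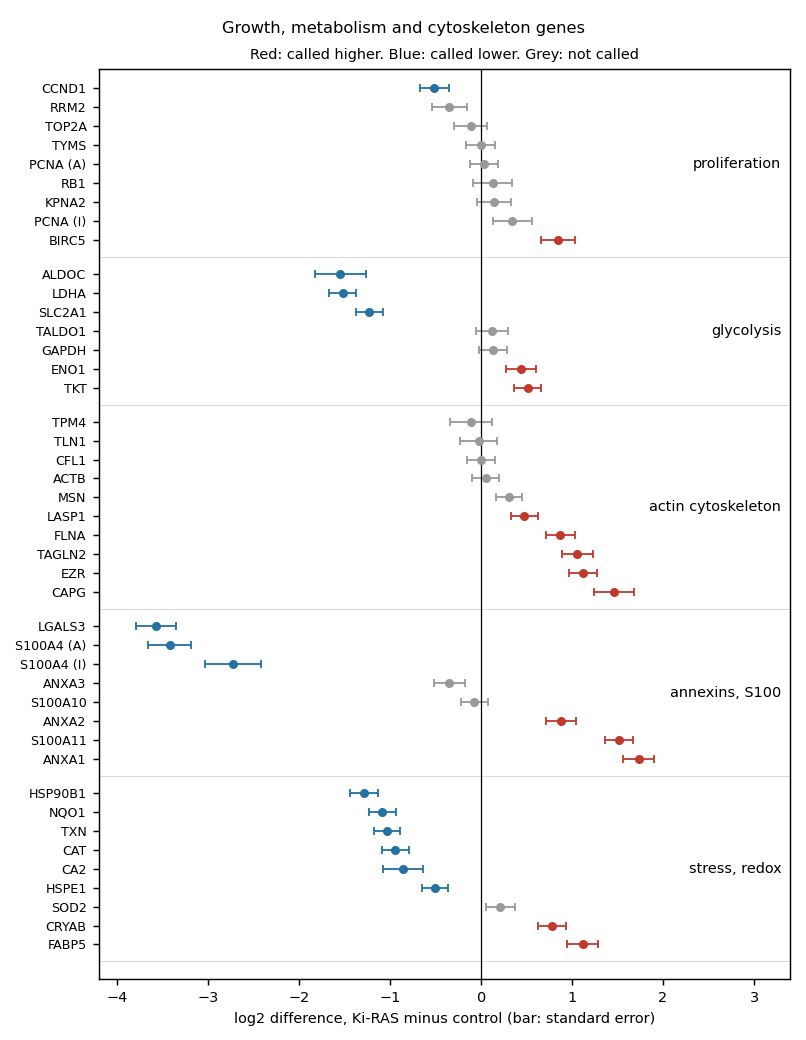
Difference of mean normalized log2 intensity, Ki-RAS minus control (horizontal axis), with the standard error of the fit as a bar, for 5 gene lists; red marks probes called higher, blue those called lower and grey those not called. The proliferation probes lie between -0.51 and 0.85, while LGALS3 and S100A4 reach below -2.5 and ANXA1, S100A11 and CAPG lie at or above 1.46.

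HRAS, the gene of Ha-RAS, read 7.11 and 7.11 in Ki-RAS cells and 6.25 and 6.19 in control cells and was 1.86-fold higher (adjusted p = 0.0012). In Ha-RAS cells HRAS read 7.49 and 7.12, and Ki-RAS cells did not differ from them at the threshold (-0.20 ± 0.17 SE, adjusted p = 0.328). The place of the HRAS probe in the transcript is not given, and an introduced coding sequence may lie outside it, so these values do not check the labels.

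Detection itself also changed. Of the 10848 probes tested, both Ki-RAS arrays and no control array detected 669, with a median log2 difference of 1.34. Of the 669, Ha-RAS cells had 298 on both arrays, 54 on 1 and 317 on none. Conversely, both control arrays and no Ki-RAS array detected 707 probes (6.52% of those tested), with a median log2 difference of -1.35. Ha-RAS cells had 316 of the 707 on both arrays, 69 on 1 and 322 on none. The Ki-RAS and Ha-RAS differences share the control arrays.

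The highest fitted differences belonged to probes for which no gene could be named. Many of the probes at either end were below detection in 1 group, so their order is only that of the fit. GI_11995467-S read 13.10 and 12.82 in Ki-RAS cells and 6.48 and 4.88 in control cells, where 1 array detected it. It was 156-fold higher (adjusted p = 1.52e-07), with a log2 difference of 7.28 that ran from 6.50 to 8.12 when single arrays were left out and was 6.25 without background correction. GI_39725680-S read 11.49 and 10.96 against 4.65 and 4.52 in control and 5.53 and 5.22 in Ha-RAS cells. Over control it rose at least 65.6-fold (adjusted p = 3.83e-09), or a fitted 34.3-fold without background correction. GI_18379361-A, at 10.61 and 10.46, was detected on both Ki-RAS arrays and on no control or Ha-RAS array. The 10 probes with the highest differences were picked for that difference, so their Ki-RAS arrays had to lie above the control arrays. Of these 10, 3 were undetected on both Ha-RAS arrays (GI_40316923-I, GI_19913425-S and GI_18379361-A). The 10 lowest include APOA1, FN1, VTN and APOA2. Among the unnamed ones, GI_21265107-S was undetected in Ki-RAS cells, at 4.27 and 4.44 against 11.82 and 11.72, at least 95.5-fold lower (adjusted p = 9.61e-10) or a fitted 57.7-fold without background correction, but read 10.41 and 10.52 in Ha-RAS cells. Ki-RAS cells were at least 38.8-fold below Ha-RAS cells for this probe (adjusted p = 1.54e-09), or a fitted 23.9-fold without background correction. GI_7110718-S read 5.66 and 4.61 against 12.99 and 12.77, with 1 Ki-RAS array detecting it, and 8.29 and 8.39 in Ha-RAS cells.

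**Figure D5:**
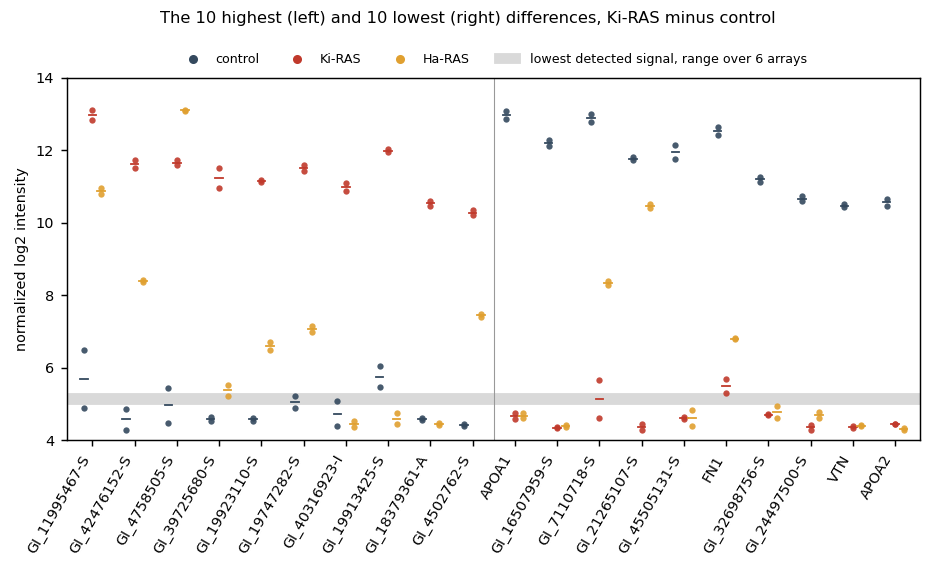
Normalized log2 intensity (vertical axis) on each array of the 10 probes with the highest and the 10 with the lowest called differences between Ki-RAS and control cells, with the group mean as a bar and the range of the lowest detected signal as a grey band. Ha-RAS cells are near the control level for some of the Ki-RAS-high probes, such as GI_18379361-A, and for the Ki-RAS-low probe GI_21265107-S they read 10.41 and 10.52, against 11.82 and 11.72 in control cells.

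Across the 9 lists, 75 probes (73 genes) were tested, and 16 were higher, 37 lower and 22 not called in Ki-RAS cells, where 27.9% of all probes tested were higher and 27.2% lower. The lists were chosen with earlier results of these data in view and hold genes that cells of this kind express, so the balance of their directions is a description. The direct comparison of both RAS lines called 40 of the 75 probes, 12 higher and 28 lower in Ki-RAS cells, where 59.7% of all probes tested were called.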

How the data were processed

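Biotin-labelled copies of total RNA from Caco-2 cells were measured on Illumina bead arrays (labels' protocols). The deposited signal of a probe is, per the file headers, an average intensity (linear scale), and the deposited detection score is near 1 for bright probes. The further deposited bead columns have other units and were not used in tests. According to the design text the authors left the intensities without normalization. The submitters' processing notes name BeadStudio 1.5.13. Their own differential expression analysis was not rerun. The table of the whole series held the same intensities (0 of 146100 values differed by over 0.001).

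Detection p was taken as 1 minus the score. Background was corrected with nec of limma 3.58.1 (R 4.3.3, offset 16), followed by log2 and quantile normalization. Of 24354 probes, 4 without a sequence number were left out. Probes detected on both arrays of at least 1 of the 3 groups (10848) were fitted over all 6 arrays with lmFit and eBayes (3 residual and 7.1 prior degrees of freedom), two-sided, with Benjamini-Hochberg adjustment over all probes tested. The number of arrays limits the precision. A fold is given as a bound for a probe undetected on every array of the dimmer group. The bound divides the brighter group's mean by a floor, which takes on each dimmer array the probe's own signal or the lowest detected signal, whichever is higher, and averages these.

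Named were all identified genes of 9 lists and the 10 highest and 10 lowest differences among called probes. The members and lists were chosen with earlier results of these data known. Gene names rest on general knowledge of RefSeq numbers and not on a table. Of 140 numbers written down before the probe IDs were seen, 69 had a probe. In 2 blocks of numbers assigned in alphabetical order, 72 and 13 named genes had 0 neighbours out of order, a check drawn from the same knowledge. The procedure was tested on simulated data. Alternatives covered background, scaling, filter, spread, threshold, leaving the Ha-RAS arrays out, a block for the replicate letter, and each array left out. Results for an item of the RAS pathway list are not reported here.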

Additional observations from a re-analysis of the deposited data

Results flagged for a closer look

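The listed genes below are those whose difference from control was called in opposite directions in the Ki-RAS and Ha-RAS cells and whose direct Ki-RAS minus Ha-RAS difference passed the limma threshold. This is narrower than any difference between the RAS lines, which was called for 40 of the 75 probes. Both isoform classes of S100A4 probe were lower than control in Ki-RAS and higher in Ha-RAS cells, with fitted Ki-RAS minus Ha-RAS log2 differences of -7.65 (isoform probe, adjusted p = 2.06e-08) and -7.49 (all isoforms, adjusted p = 6.42e-09). The probe for all isoforms was undetected in Ki-RAS cells, so its difference is a bound, at least 144-fold. TGFBI (-3.04, adjusted p = 1.96e-07), CCND1 (-2.93, adjusted p = 1.57e-07), IGFBP7 (fitted -2.81, adjusted p = 8.54e-07), CA2 (-2.66, adjusted p = 3.69e-06) and NQO1 (-2.49, adjusted p = 3.79e-07) showed the same split. IGFBP7 was undetected in Ki-RAS cells too. Its bound was at least 4.80-fold below Ha-RAS cells, or a fitted 3.12-fold without background correction. TKT went the other way, higher than control in Ki-RAS and lower in Ha-RAS cells, with a difference of 0.96 (adjusted p = 0.00032). The calls of CCND1, CA2 and TKT against control were lost when single arrays were left out, while those of S100A4, TGFBI, IGFBP7 and NQO1 were not. Both differences from control use the same control arrays. A probe called below control in 1 line and above it in the other is bound to differ between the lines. The direct p-values therefore follow from how these genes were picked and add no separate support.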

How the results depend on the processing

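The number of probes called between Ki-RAS and control cells was 5982, ran from 4156 to 6129 over the alternatives, and from 4960 to 5659 when 1 array was left out. The count with at least a 2-fold change fell from 2630 to 1449 without background correction and to 1663 with an offset of 50, both of which shrink the folds of dim probes. With probes detected on all 6 arrays only, which leaves out probes absent from a group, it was 1382, and 29 in place of 53 listed probes were called. The common-median scaling moved the median difference from 0.01 to -0.09, and the calls from 3027 higher and 2955 lower to 2237 and 3246. Over the alternatives run, 0 of the named probes' calls reversed. ENO1, LASP1, TKT, CCND1, CA2 and HSPE1 lost theirs under some, and ANXA3, MSN, DSP and PCNA gained one under 1 each. The array letters share only a letter, with a correlation of deviations of 0.10 between Ki-RAS and control, -0.18 between Ha-RAS and control and -0.17 between Ki-RAS and Ha-RAS. With the letter as a replicate block, 5791 probes were called, 2630 of them at least 2-fold, with 52 listed probes against control and 39 against Ha-RAS. The one named call it changed was ENO1 (adjusted p = 0.0578). The sources used here do not name each array's slide. With 2 arrays per line, levels under the lowest detected signal give only bounds.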
